A study of Mus musculus with 9 samples.

Results

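The transcripts of 9 amino acid transporter genes, Slc7a5, Slc3a2, Slc1a5, Slc7a11, Slc38a1, Slc38a2, Slc7a1, Slc43a1 and Slc6a9, were examined in whole osteosarcoma (OS) tumors from genetically engineered mouse models (GEMMs). The 9 genes were chosen by name, all 9 are among the 55367 genes of the deposited table, and all 9 passed the filter on low counts together with 15365 genes in all. Enzymes of glutamine metabolism were read from a separate list of 19 genes. RNA-Seq counts were compared between 4 p53-driven and 5 Myc-knockin tumors to ask which of these transcripts differ between the models. The p53-driven mice carried Col2.3-Cre, which is expressed in osteoblasts, with a floxed Trp53 allele over a wild-type allele (Col2.3-Cre/Trp53fl/+). The Myc-knockin mice came from crossing that model with Lox-Stop-Lox-MycT58A mice. Both groups thus share the Cre and the floxed Trp53 allele, and only the Myc-knockin mice carry the Cre-dependent Myc allele. Tumors arose spontaneously and were sequenced without sorting, and the labels give neither the age nor the sex of the mice. The authors report a shorter median time to sacrifice for the Myc-knockin model than for the p53 model, so age may differ with genotype.

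Cells take up amino acids through families of membrane carriers that differ in substrate and in driving force. Sodium-coupled carriers accumulate glutamine and other small neutral amino acids, and exchangers such as the Slc7a5 protein then trade intracellular glutamine for leucine and other large neutral amino acids, which signal to mTORC1 at the lysosome. In bone, osteoblasts import glutamine and proline for the synthesis of a collagen-rich matrix, and in many proliferating cells Myc is known to raise the expression of carriers and of enzymes that use glutamine.

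The libraries differed in depth and in content. Total counts were 3026217 in F187, 10593069 in F325, 9498026 in F331 and 6853293 in F368 among the p53-driven tumors. Among the Myc-knockin tumors they were 2716322 in M351, 4295475 in M408, 3532881 in M9, 17073285 in M624 and 15769788 in M664. Satellite-repeat genes took 44.3% of the counts in F187, 67.9% in M351, 23.2% in M408 and 81.0% in M9, and at most 0.0242% in the other tumors. Reads expected per kilobase of exon from genomic background, estimated from chemosensory receptor genes, were 0.710 in F187, 1.12 in M351, 0.151 in M408 and 1.24 in M9, and at most 0.0421 elsewhere. The noncoding RNA Rn7sk was at or above 6545 CPM (edgeR's counts per 1e6 of the TMM-normalized library size) in 7 tumors, but at 3.47 CPM in M624 and at 6.35 CPM in M664. The fits to all 9 tumors were therefore repeated without M624 and M664, and without the 4 libraries with satellite reads.

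Myc itself was at 46.2 CPM in F187, 43.5 in F325, 67.1 in F331 and 60.4 in F368, and at 270 CPM in M351, 520 in M408, 144 in M9, 1045 in M624 and 905 in M664. Each Myc-knockin tumor exceeded each p53-driven tumor, with M624 and M664 the highest and M9 the lowest of the Myc-knockin group. Its log2 fold change by edgeR was 3.41, with a standard error (SE) of 0.59 and a p of 0.0217 after Benjamini-Hochberg adjustment across all genes tested. The call was lost without F325 (adjusted p = 0.0813, edgeR), F331 (0.0782) or F368 (0.0909), and with scaling by library size alone (0.0659). The log2 fold change of Myc was 3.15 to 3.66 with each tumor left out, and 3.63 with scaling by library size alone.

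A gene was called when its adjusted p was under 0.05 and its fold change over 1.5. Of the 9 transporter genes, 1 was called higher in the Myc-knockin tumors, Slc38a1, and 0 were called lower, where 5.27% of all genes tested were called (348 higher and 461 lower, or 626 higher and 345 lower with upper-quartile normalization). At an unadjusted p under 0.05, 3 were higher and 0 lower, beside 26.8% of all genes in either direction. Slc38a1 was also the only one of the 9 whose groups did not overlap, beside 13.0% of all genes. The 9 log2 fold changes had a median of 0.57, with 7 above 0, beside a median of 0.14 over all genes tested. Without M624 and M664, 1 was called beside 4.61% of genes, 5 were above 0 and the median was 0.28. Without the 4 satellite libraries, 4 were called (Slc7a5, Slc3a2, Slc38a1 and Slc43a1), beside 27.9% of genes, 6 were above 0 and the median was 1.05. DESeq2 called 3 (Slc7a5, Slc38a1 and Slc43a1), beside 17.4% of genes. With 9 genes, 1 call more or less moves the share widely, and these counts are given as a description. The share of counts outside satellite genes that fell on the 9 genes was 0.0655% to 0.0792% in the p53-driven tumors and 0.0990% to 0.164% in the Myc-knockin tumors. This share is of raw counts, without TMM factors and without subtraction of background. It therefore also moves with the other transcripts of a library, and it is not read as a difference in the 9 genes.

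**Figure D1:**
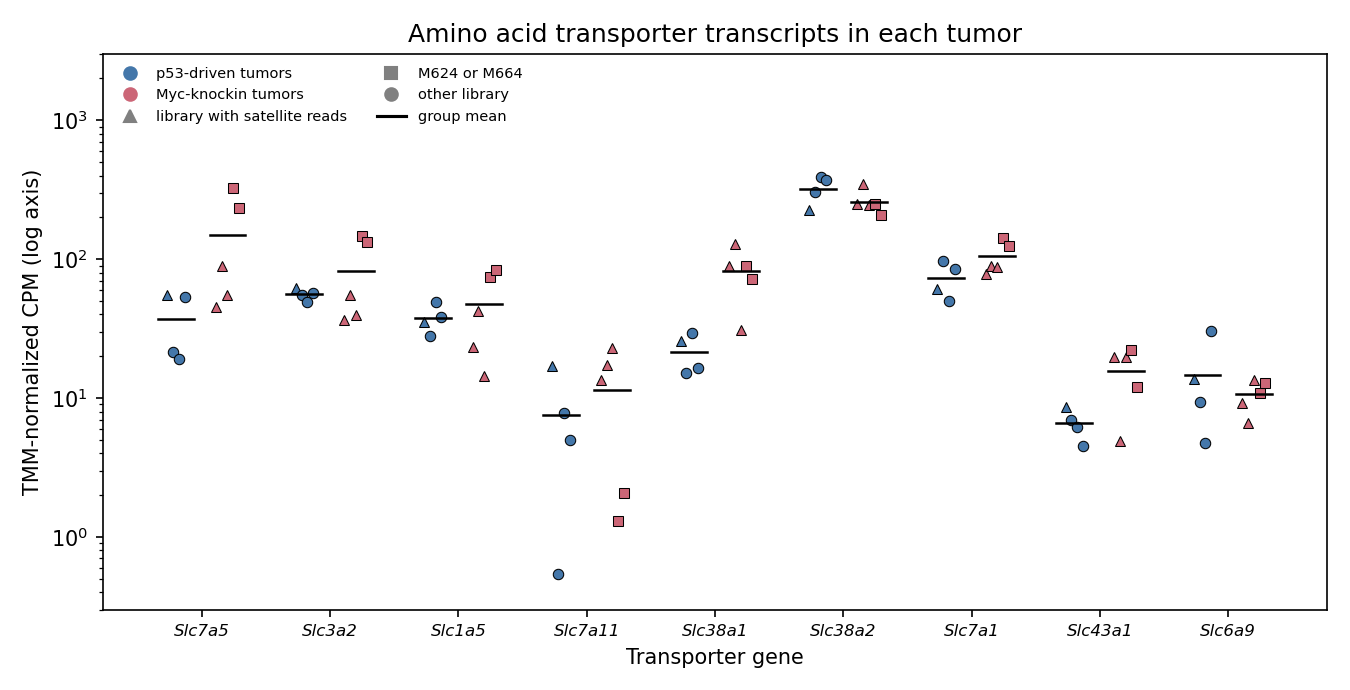
Each point is a tumor, placed by the TMM-normalized CPM of the gene named on the horizontal axis (log axis), with p53-driven tumors in blue, Myc-knockin tumors in red and group means as bars. Slc38a1 is the gene whose groups do not overlap (15.1 to 29.2 CPM against 31.1 to 128 CPM), and the squares (M624 and M664) lie highest for Slc7a5, Slc3a2, Slc1a5 and Slc7a1.

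Slc7a5 encodes the light chain that carries leucine and other large neutral amino acids, and Slc3a2 encodes the heavy chain that brings several light chains to the cell surface. Slc7a5 (ENSMUSG00000040010, chromosome 8 of mm10, 121881150 to 121907694, minus strand) was at 55.3 CPM in F187, 21.4 in F325, 19.0 in F331 and 53.5 in F368, and at 45.5 CPM in M351, 89.4 in M408, 55.0 in M9, 327 in M624 and 233 in M664. M624, M664 and M408 lay above all p53-driven tumors, while M351 and M9 lay within the p53-driven range. The group means were 37.3 ± 19.8 (SD, n = 4) and 150 ± 124 CPM (SD, n = 5), and the log2 fold change of 2.02 (SE 0.64, adjusted p = 0.0815, edgeR) did not pass the test. It was 0.85 without M624 and M664 (adjusted p = 0.266, edgeR) and 3.19 without the 4 satellite libraries (adjusted p = 0.0107, edgeR), and 2.23 without M9 alone (adjusted p = 0.0496, edgeR). Over all alternatives the adjusted p ranged from 0.00849 with DESeq2 to 0.266.

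Slc3a2 (ENSMUSG00000010095, chromosome 19, 8706882 to 8723369, minus strand) was at 62.4 CPM in F187, 54.8 in F325, 49.1 in F331 and 57.3 in F368, and at 36.3 CPM in M351, 54.8 in M408, 39.8 in M9, 147 in M624 and 132 in M664. The p53-driven tumors were close to each other, M351 and M9 lay below all of them, and M624 and M664 lay above all of them. Its log2 fold change of 0.57 (SE 0.44, adjusted p = 0.435, edgeR) became -0.28 without M624 and M664, and 1.39 without the 4 satellite libraries (adjusted p = 0.0120, edgeR). In whole tumors, fewer cells of a type and less RNA per cell cannot be told apart, and this holds for each transcript described here.

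The ratio of the light chain to the heavy chain needs no normalization between libraries. Per kilobase of exon, Slc7a5 reads stood to Slc3a2 reads at 0.843 in F187, 0.372 in F325, 0.369 in F331 and 0.889 in F368, and at 1.19 in M351, 1.55 in M408, 1.31 in M9, 2.12 in M624 and 1.68 in M664. The light chain was thus below the heavy chain in each p53-driven tumor and above it in each Myc-knockin tumor, including M351 and M9, where neither transcript exceeded the p53-driven range. The mean log2 ratio was 1.44 higher in the Myc-knockin group (two-sided exact permutation test over all arrangements of the tumors, p = 0.0159, the smallest p that 4 against 5 tumors allow, and 0.0317 adjusted over 4 ratios). The difference was 1.25 without M624 and M664 and 1.93 without the 4 satellite libraries, where the smallest p from the exact test is 0.0571 and 0.2. With the background subtracted it was 1.46 (p = 0.0159 by the exact test, 0.0635 adjusted over the 4 ratios).

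**Figure D2:**
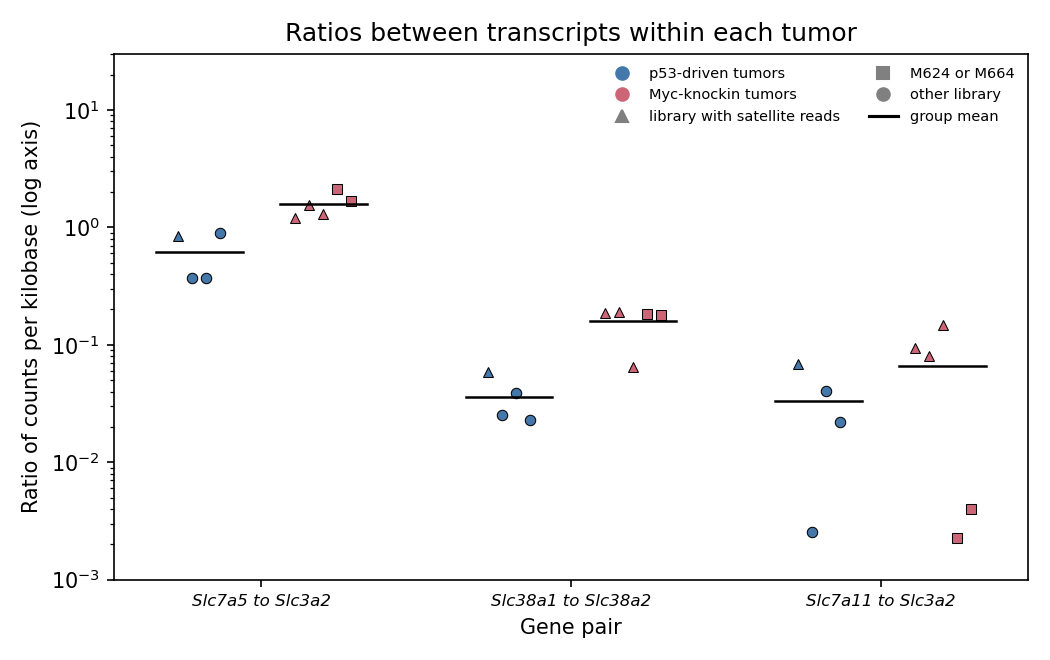
Each point is a tumor, placed by the ratio of counts per kilobase of exon between the genes of a pair (log axis), with p53-driven tumors in blue, Myc-knockin tumors in red and group means as bars. The groups do not overlap for Slc7a5 to Slc3a2 (at most 0.889 against at least 1.19) or for Slc38a1 to Slc38a2 (at most 0.0582 against at least 0.0651), and for the latter they do overlap once background is subtracted.

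Slc38a1 and Slc38a2 encode sodium-coupled importers of glutamine, alanine and other small neutral amino acids, and the genes are neighbors on the minus strand of chromosome 15. Slc38a1 (ENSMUSG00000023169, 96571418 to 96642913) was at 25.7 CPM in F187, 15.1 in F325, 29.2 in F331 and 16.5 in F368, and at 89.9 CPM in M351, 128 in M408, 31.1 in M9, 89.5 in M624 and 71.9 in M664. The Myc-knockin tumors all lay higher, M9 only just so and the other 4 well apart. Slc38a1 rose with a log2 fold change of 1.93 (SE 0.40, adjusted p = 0.0288, edgeR), from 21.6 ± 6.90 (SD, n = 4) to 82.0 ± 35.0 CPM (SD, n = 5). The M9 value rests on 39 counts, of which 54.9% are expected from background, and after subtraction M9 was at 14.0 CPM, below each p53-driven tumor. The call was made with the background subtracted (1.99, adjusted p = 0.0308, edgeR), without M624 and M664 (2.03, adjusted p = 0.0457) and without the 4 satellite libraries (2.00, adjusted p = 0.0151). Over all alternatives the adjusted p ranged from 0.000115 with DESeq2 to 0.176 with scaling by library size alone, where the call was lost. It was lost without F187 (adjusted p = 0.0581, edgeR), F325 (0.100), F331 (0.0884) or F368 (0.128), with log2 fold changes of 1.79 to 2.12, while the count of genes called fell from 809 to 335, 8, 6 and 5.

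Slc38a2 (ENSMUSG00000022462, 96687392 to 96699730), whose product also carries proline, was at 226 CPM in F187, 306 in F325, 388 in F331 and 369 in F368, and at 248 CPM in M351, 347 in M408, 245 in M9, 252 in M624 and 206 in M664. The ranges overlapped almost fully, with a log2 fold change of -0.31 (SE 0.29, adjusted p = 0.521, edgeR). Per kilobase, Slc38a1 reads stood to Slc38a2 reads at 0.0582 in F187, 0.0253 in F325, 0.0386 in F331 and 0.0230 in F368, and at 0.186 in M351, 0.189 in M408, 0.0651 in M9, 0.182 in M624 and 0.178 in M664. M351, M408, M624 and M664 had nearly the same ratio although their libraries differ in depth and content, and M9 stood apart, just above the highest p53-driven tumor. With the background subtracted the ratio in M9 was 0.0305, inside the p53-driven range of 0.0229 to 0.0477. The mean log2 ratio was 2.14 higher in the Myc-knockin group (two-sided exact permutation test, p = 0.0159, 0.0317 adjusted over the 4 ratios), and 1.96 higher with the background subtracted (p = 0.0476 by the exact test, 0.0952 adjusted). It was 1.96 without M624 and M664 and 2.68 without the 4 satellite libraries, groups too small for the exact test to pass 0.05.

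Slc1a5 encodes a sodium-dependent exchanger of glutamine and other neutral amino acids. Slc1a5 (ENSMUSG00000001918, chromosome 7, 16781340 to 16798274, plus strand) was at 35.2 CPM in F187, 27.9 in F325, 49.1 in F331 and 38.5 in F368, and at 23.4 CPM in M351, 42.7 in M408, 14.3 in M9, 73.8 in M624 and 83.6 in M664. As with Slc3a2, M624 and M664 were above and M351 and M9 below the p53-driven tumors. Its log2 fold change of 0.36 (SE 0.46, adjusted p = 0.657, edgeR) was -0.38 without M624 and M664, and 1.05 without the 4 satellite libraries (adjusted p = 0.0546, edgeR). M9 held 18 counts of this gene, 28.8% of them expected from background.

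Slc7a11 encodes the light chain that imports cystine in exchange for glutamate, a source of cysteine for glutathione. Slc7a11 (ENSMUSG00000027737, chromosome 3, 49892526 to 50443614, minus strand) was at 16.98 CPM in F187, 0.544 in F325, 7.78 in F331 and 4.98 in F368, and at 13.5 CPM in M351, 17.4 in M408, 23.1 in M9, 1.30 in M624 and 2.07 in M664. The 4 highest values were those of the 4 satellite libraries, whatever the genotype. Background was expected to give 23.0% of its counts in F187, 71.1% in M351, 59.6% in M9 and 2.22% in M408. After subtraction the values were 13.1 CPM in F187, 3.92 in M351, 17.01 in M408 and 9.33 in M9. Over the 9 tumors the log2 fold change was 0.58 (SE 0.97, adjusted p = 0.735, edgeR). It was 1.38 without M624 and M664 (adjusted p = 0.308, edgeR), -1.38 without the 4 satellite libraries (adjusted p = 0.348), 0.16 with the background subtracted, 1.73 by limma-voom and 0.16 to 1.28 with each tumor left out. The ratio of Slc7a11 to Slc3a2 ranged from 0.00252 to 0.0690 in the p53-driven tumors and from 0.00224 to 0.147 in the Myc-knockin tumors, and the difference did not pass the exact test (mean log2 difference 0.34, p = 0.841). The difference was 2.39 without M624 and M664 (exact permutation test p = 0.0571, the smallest possible there) and -2.13 without the 4 satellite libraries.

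Slc7a1 encodes the carrier of arginine and lysine. Slc7a1 (ENSMUSG00000041313, chromosome 5, 148327410 to 148399904, minus strand) was at 61.2 CPM in F187, 97.8 in F325, 49.8 in F331 and 85.2 in F368, and at 78.2 CPM in M351, 89.7 in M408, 88.4 in M9, 142 in M624 and 124 in M664. M624 and M664 exceeded the p53-driven tumors and the other Myc-knockin tumors lay among them (log2 fold change 0.51, SE 0.30, adjusted p = 0.295, edgeR). Slc43a1, the gene of a facilitated carrier of branched-chain amino acids and phenylalanine (ENSMUSG00000027075, chromosome 2, 84838850 to 84863594, plus strand), was at 8.69 CPM in F187, 6.92 in F325, 6.14 in F331 and 4.50 in F368, and at 19.7 CPM in M351, 4.94 in M408, 19.9 in M9, 22.0 in M624 and 12.0 in M664. All Myc-knockin tumors but M408 were above the p53-driven tumors. Its log2 fold change came to 1.26 (SE 0.45, adjusted p = 0.108, edgeR), on as few as 22 counts in a library. Of the 9 fits with a tumor left out, only that without M408 called Slc43a1 (1.52, adjusted p = 0.0439, edgeR), and the adjusted p reached 0.311. It was 1.18 without M624 and M664 (adjusted p = 0.169, edgeR) and 1.55 without the 4 satellite libraries (0.0378), and DESeq2 called it (0.0470). Background was expected to give 20.1% of its counts in M351 and 28.4% in M9.

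Slc6a9 encodes a sodium- and chloride-coupled glycine transporter (ENSMUSG00000028542, chromosome 4, 117834506 to 117875198, plus strand). Its level was 13.8 CPM in F187, 9.41 in F325, 4.76 in F331 and 30.6 in F368, and 9.23 CPM in M351, 6.59 in M408, 13.5 in M9, 10.9 in M624 and 12.8 in M664. F368 was the highest of the 9 tumors, and the Myc-knockin tumors lay within the range of the others. The log2 fold change of -0.47 (SE 0.49, adjusted p = 0.575, edgeR) became 0.18 without F368. Of the 5141 exon bases of Slc6a9, exons on the opposite strand cover 1429 (Ccdc24), 511 (Gm17114) and 46 (B4galt2). Over the 9 tumors Ccdc24 held 17 counts, Gm17114 held 0 and B4galt2 held 3296. The library kit was stranded, while the strand setting of the counting is not given in the sources used here.

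Levels of different genes were compared as CPM per kilobase of exon. In each p53-driven tumor Slc38a2 was the most abundant of the 9 (means 36.5 ± 8.27 per kilobase in the p53-driven, SD, n = 4, and 29.4 ± 5.90 in the Myc-knockin tumors, SD, n = 5) and Slc3a2 the next (15.8 ± 1.56 and 23.2 ± 15.0). Slc7a5 came to 10.1 ± 5.33 in the p53-driven tumors, which does not differ beyond the spread from Slc1a5 at 9.03 ± 2.11, and to 40.4 ± 33.5 in the Myc-knockin tumors. It ranked highest of the 9 in M624 (88.1 per kilobase) and M664 (62.8), and next after Slc38a2 in M351, M408 and M9. Slc7a1 followed at 6.38 ± 1.90 and 9.07 ± 2.37 per kilobase. Slc38a1 stood at 1.26 ± 0.400 and 4.76 ± 2.03, Slc43a1 at 1.15 ± 0.305 and 2.75 ± 1.25, Slc6a9 at 2.85 ± 2.19 and 2.07 ± 0.545, and Slc7a11 at 0.544 ± 0.499 and 0.825 ± 0.688. Slc7a11 was the lowest of the 9 in each p53-driven tumor, and the other 3 of these changed order between tumors.

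The pattern of Slc7a5 over the 9 tumors was set against 9538 genes with a mean of at least 10 CPM, by the root mean square difference of log2 CPM after centering each gene on its mean. The closest were Erf (0.433), Ruvbl2 (0.434), Traf4 (0.447), Eno1b (0.448) and Mrto4 (0.457). Slc3a2 ranked 727 (0.850), ahead of Slc7a1 at 1565, Slc38a1 at 1779 and Slc1a5 at 1901, while Slc43a1 ranked 3065, Slc6a9 4166 and Slc38a2 5669, and Slc7a11 was below the minimum level.

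Gls2 encodes an enzyme that turns glutamine into glutamate and ammonia. Gls2 was at 2.76 CPM in F187, 0.467 in F325, 0.605 in F331 and 0.486 in F368, and at 6.16 CPM in M351, 4.58 in M408, 6.37 in M9, 57.0 in M624 and 13.8 in M664. All Myc-knockin values were above the p53-driven ones, and M624 lay far above the rest.

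The fitted log2 fold change of Gls2 was 4.35 (SE 0.98, adjusted p = 0.0352, edgeR), on 4 to 7 counts in each p53-driven tumor. Gls2 thus passed the filter on low counts mainly through the Myc-knockin tumors. Among all genes with at least 1 count it was also called (4.44, adjusted p = 0.00858, edgeR). In M351 it held 10 counts, 39.0% of them expected from background, and M9 held 8, with 53.9%. Without M624 the call was lost and the log2 fold change was 3.14 (adjusted p = 0.0513, edgeR). The call was also lost without F325 (0.119), F331 (0.131) or F368 (0.148), with log2 fold changes of 4.08 to 4.17. Without the 4 satellite libraries the log2 fold change was 6.07 (adjusted p = 0.00617, edgeR). Without both M624 and M664 the gene did not pass the filter on low counts. Exons of Spryd4 on the opposite strand cover 97 of its 3474 exon bases. Glul, the gene of glutamine synthetase, which runs the opposite reaction, had a log2 fold change of 0.46 (62.8 ± 12.5 CPM, SD, n = 4, and 86.4 ± 26.2 CPM, SD, n = 5; adjusted p = 0.330, edgeR).

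Of these 19 genes of glutamine enzymes, 3 were called higher (Gls2, Ppat and Pfas) and 0 lower, beside 5.27% of all genes. The count includes Gls2 with the limit given above, that it passed the filter mainly through the Myc-knockin tumors. Of their log2 fold changes, 15 were above 0 and the median was 0.58 (0.44 without M624 and M664). At an unadjusted p under 0.05, 6 were higher and 1 lower (26.8% of all genes in either direction), and DESeq2 called 5 higher and 1 lower (17.4% of all genes). Ppat and Pfas encode amidotransferases of purine synthesis that take their nitrogen from glutamine. Ppat was at 27.3 CPM in F187, 17.2 in F325, 26.6 in F331 and 20.1 in F368, and at 73.9 CPM in M351, 79.1 in M408, 35.1 in M9, 103 in M624 and 50.9 in M664. Pfas was at 20.5 CPM in F187, 15.3 in F325, 19.4 in F331 and 15.6 in F368, and at 59.1 CPM in M351, 78.4 in M408, 24.7 in M9, 134 in M624 and 67.1 in M664. For both, the groups did not overlap and M9 was the lowest Myc-knockin tumor. Pfas held 31 counts in M9, 31.8% of them expected from background, and after subtraction M9 was at 16.8 CPM, inside the p53-driven range. Ppat rose with a log2 fold change of 1.60 (SE 0.34, adjusted p = 0.0312, edgeR) and Pfas with 2.05 (SE 0.42, adjusted p = 0.0279, edgeR). Both were called without M624 and M664 (adjusted p = 0.0431 and 0.0436, edgeR). Leaving out any p53-driven tumor ended both calls (adjusted p up to 0.134 for Ppat and 0.124 for Pfas), with log2 fold changes of 1.49 to 1.69 and 1.98 to 2.11 and with the fall in genes called given for Slc38a1, and leaving out M351 ended that of Ppat (0.0528). Both were also lost with scaling by library size alone (adjusted p = 0.233 for Ppat and 0.158 for Pfas, edgeR), and that of Ppat among all genes with at least 1 count (0.0917).

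The other 15 enzymes were not called by edgeR over the 9 tumors. DESeq2 called Got2 and Ctps higher and Gfpt1 lower, and without the 4 satellite libraries edgeR called Got1, Got2, Cad and Ctps. Ctps (1.13, adjusted p = 0.0777, edgeR) and Cad (0.86, adjusted p = 0.137), which use glutamine in pyrimidine synthesis, and the transaminase gene Got2 (1.87, adjusted p = 0.0707) had the smallest adjusted p among those with a log2 fold change above 0. Gfpt1, the gene of the glutamine-dependent entry enzyme of hexosamine synthesis, had a log2 fold change of -1.02 (154 ± 46.7 CPM, SD, n = 4, and 75.9 ± 26.0 CPM, SD, n = 5; adjusted p = 0.0922, edgeR). For Asns, Psat1, Got1, Gpt, Nadsyn1, Gfpt2, Gpt2 and Gmps the log2 fold changes were 0.35, 0.67, 0.66, 0.89, 0.58, 0.39, 0.12 and 0.19. For Aldh18a1, Ctps2 and Glud1 they were -0.22, -0.03 and -0.06, and Glud1 was the most abundant of the list per kilobase in the p53-driven tumors (27.7 ± 5.88, SD, n = 4).

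Of 27 other amino acid transporter genes tested (43 in the table), 0 were called by edgeR, beside 5.27% of all genes. Their median log2 fold change was -0.17 (-0.40 without M624 and M664). At an unadjusted p under 0.05, 5 were higher and 3 lower (26.8% of all genes in either direction). DESeq2 called 3 higher and 1 lower (17.4% of all genes), and limma-voom called 2 higher and 2 lower (10.8%). The most abundant per kilobase in the p53-driven tumors was Slc38a10 (34.5 ± 11.0, SD, n = 4), with a log2 fold change of -0.91 (adjusted p = 0.203, edgeR). It was called lower without M624 and M664 (-1.50, adjusted p = 0.0482, edgeR) and by limma-voom (-1.40, adjusted p = 0.0261), and was at -0.43 without the 4 satellite libraries (adjusted p = 0.447, edgeR). The 4 with the smallest adjusted p, picked after their values were seen, were Slc6a15, Slc7a2, Slc36a4 and Slc38a4. DESeq2 called these 4, and without the 4 satellite libraries edgeR called Slc7a2 and Slc38a4 (adjusted p = 0.0292 and 0.00623). Slc7a2, the gene of another carrier of arginine and lysine, was at 39.9 CPM in F187, 13.1 in F325, 22.0 in F331 and 43.0 in F368, and at 110 CPM in M351, 50.9 in M408, 56.6 in M9, 89.3 in M624 and 129 in M664. Its groups did not overlap (log2 fold change 1.57, SE 0.42, adjusted p = 0.0542, edgeR).

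Slc38a4, which belongs to the same family as Slc38a1 and lies beyond Slc38a2 on chromosome 15 (96994820 to 97055956), was at 37.1 CPM in F187, 6.61 in F325, 13.0 in F331 and 4.74 in F368, and at 161 CPM in M351, 99.8 in M408, 7.97 in M9, 136 in M624 and 142 in M664. As for Slc38a1, M9 was the low Myc-knockin tumor, here within the p53-driven range with 10 counts, 52.9% of them expected from background. Its log2 fold change came to 2.88 (SE 0.81, adjusted p = 0.0594, edgeR). With each tumor left out the log2 fold change was 2.56 to 3.73, and 1 of these 9 fits called the gene (adjusted p = 0.0203, edgeR). Slc6a15 had a log2 fold change of 1.81 (adjusted p = 0.0524, edgeR) and Slc36a4 of -1.04 (adjusted p = 0.0545, edgeR), the latter with no overlap between 48.6 to 93.2 CPM and 22.3 to 43.0 CPM.

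Of 35 genes of amino acid sensing by mTORC1, 1 was called, beside 5.27% of all genes. Their median log2 fold change was 0.08, and -0.087 without M624 and M664. At an unadjusted p under 0.05, 7 were higher and 3 lower (26.8% of all genes in either direction), and DESeq2 called 4 higher and 2 lower (17.4% of all genes). The gene called was Rragb, which encodes a Rag GTPase (log2 fold change 4.52, SE 0.88, adjusted p = 0.0252, edgeR). Rragb held 0 to 6 counts in the p53-driven tumors (at most 0.467 CPM) and 8 to 287 in the Myc-knockin tumors (3.84 to 10.9 CPM). It thus passed the filter on low counts through the Myc-knockin tumors. The call was lost without F325 (adjusted p = 0.0820, edgeR), F331 (0.0662) or F368 (0.120). The log2 fold change of Rragb was 4.05 to 5.11 with each tumor left out. Without both M624 and M664 Rragb did not pass the filter on low counts. Sec13, the most abundant of this list per kilobase, was at 125.6 to 216 CPM in the p53-driven tumors, 51.6 to 104 CPM in M351, M408 and M9, and at 883 CPM in M624 and 801 in M664. Its log2 fold change was 1.23 over the 9 tumors and -0.999 without M624 and M664 (adjusted p = 0.355 and 0.0912, edgeR), and without the 4 satellite libraries it was called higher (2.37, adjusted p = 0.00886, edgeR).

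Of 19 genes tested for ATF4 and its amino acid response (21 listed), 1 was called, beside 5.27% of all genes. It was Cth, which encodes an enzyme that makes cysteine (log2 fold change 4.46, SE 0.99, adjusted p = 0.0336, edgeR), on 1 to 4 counts in the p53-driven tumors. Cth thus passed the filter on low counts through the Myc-knockin tumors. The Cth call was lost without F325 (adjusted p = 0.121, edgeR), F331 (0.132), F368 (0.146), M351 (0.0511) or M624 (0.0560). The log2 fold change of Cth was 3.80 to 5.64 with each tumor left out. Without both M624 and M664 the gene did not pass the filter on low counts. The list's median log2 fold change was -0.25, and -0.59 without M624 and M664. At an unadjusted p under 0.05, 3 were higher and 2 lower (26.8% of all genes in either direction). DESeq2 called 3 higher and 1 lower (17.4% of all genes), and limma-voom called 1 higher and 2 lower (10.8%). Atf4, its most abundant gene per kilobase, was at 184 CPM in F187, 182 in F325, 157 in F331 and 219 in F368, and at 72.6 CPM in M351, 104 in M408, 78.9 in M9, 92.7 in M624 and 170 in M664. All Myc-knockin tumors but M664 lay below the p53-driven range (log2 fold change -0.83, SE 0.30, adjusted p = 0.109, edgeR). Atf4 was called lower by DESeq2 (adjusted p = 0.0395), by limma-voom (0.0101) and by edgeR without M664 (0.0395). It was not called without the 4 satellite libraries (-0.47, adjusted p = 0.351, edgeR) or without M624 and M664 (-1.05, adjusted p = 0.0553). Of 12 genes tested for glutathione synthesis from cystine, 0 were called by edgeR (5.27% of all genes). At an unadjusted p under 0.05, 2 were higher and 0 lower (26.8% of all genes in either direction). DESeq2 called 1 higher and 0 lower (17.4% of all genes). The median log2 fold change of these 12 genes was 0.42, and 0.11 without M624 and M664. Gsr, the most abundant of them per kilobase, had 0.12.

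Markers of osteoblasts, osteoclasts and leukocytes moved with the groups. The summed level of 8 osteoblast markers was 61309 CPM in F187, 136261 in F325, 131009 in F331 and 140219 in F368, and 15144 CPM in M351, 7357 in M408, 18408 in M9, 3403 in M624 and 40020 in M664, led by Col1a1 in each tumor but F331. Of these, 2 were called lower and 0 higher (5.27% of all genes in either direction), and Bglap and Bglap2 had 0 counts in M408, as Bglap2 had in M624. The 8 osteoclast markers, led by Mmp9 in each tumor but M351, summed to 7242 CPM in F187, 5216 in F325, 14151 in F331 and 2716 in F368, and to 352 CPM in M351, 261 in M408, 124 in M9, 287 in M624 and 2570 in M664. Of these, 6 were called lower and 0 higher (5.27% of all genes in either direction), and Dcstamp had 0 counts in M408. The groups did not overlap in either sum, where 13.0% of single genes tested showed no overlap.

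The 8 leukocyte and macrophage markers, led by Csf1r in the p53-driven tumors, summed to 743 to 1348 CPM in the p53-driven and 209 to 708 CPM in the Myc-knockin tumors. In this list 3 were called lower and 0 higher (5.27% of all genes in either direction). Of these 8 markers, 2 had a log2 fold change above 0. C1qa and C1qb were highest in M664 (172 and 202 CPM, against at most 86.2 and 75.0 CPM in the p53-driven tumors). The osteoblast, osteoclast and leukocyte sums were lower in each Myc-knockin tumor than in any p53-driven tumor, the reverse of Slc38a1. Their part in the transporter results was not tested. The 8 red cell markers summed to 218 CPM in M624 and to 785 CPM in M664, both led by Hba-a1, and to 6.69 to 47.3 CPM in the other tumors, where Hba-a1 and Hba-a2 had 0 counts. In those tumors Alas2 or Slc4a1 led the sum (Alas2 at 26.7 CPM in M408 and 12.9 in F368). The sums are not read here as amounts of red cells. M624 and M664 stood apart by high values of Slc7a5, Slc3a2, Slc1a5, Slc7a1 and Sec13. These 2 tumors also had the highest red cell sums, the lowest Rn7sk and the highest Myc (1045 and 905 CPM, and at most 520 CPM elsewhere). The part of red cell content, of Rn7sk or of Myc in the values of those 5 genes was not tested. Sums for skeletal muscle, neutrophil, B and plasma cell, endothelium and cartilage markers overlapped between the groups. Of the 25 markers tested in these 5 lists and the red cell list, edgeR called 0 (5.27% of all genes). At an unadjusted p under 0.05, 3 were higher and 2 lower (26.8% of all genes in either direction), and DESeq2 called 2 (17.4% of all genes).

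Promoter sequence was looked up in the RefSeq windows of GRCm38.p6, which run from 250 bases before to 50 after a transcription start. Windows were found for 6 of the 9 genes (9 windows), Slc3a2, Slc7a11, Slc38a2, Slc7a1, Slc43a1 and Slc6a9. They were searched on both strands for CACGTG, the E-box that Myc and Max bind, and for TGATGNAA, the amino acid response element that ATF4 binds, and no matches overlapped. CACGTG is in 7.15% and TGATGNAA in 3.97% of all 32851 windows. Slc7a11 had 2 matches to TGATGNAA, at positions -66 to -59 and -47 to -40 from the start, and Slc43a1 had 1 match to CACGTG at -64 to -59, while the remaining 7 windows had no match. The stretch from -100 to -2 that holds the match of Slc43a1 overlaps an annotated exon in GENCODE M21, and its bases are not shown. The bases of Slc7a11 from -100 to -2 (chr3:50443615-50443713, minus strand), upstream of its annotated exons, are shown because they hold both matches, given in capitals, which lie on opposite strands. A match describes the letters and shows no binding.
Slc7a11: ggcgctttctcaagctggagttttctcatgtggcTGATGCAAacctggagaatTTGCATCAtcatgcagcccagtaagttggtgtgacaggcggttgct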

How the data were processed

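RNA-Seq of whole tumors was used. The authors deposited raw counts per gene, not normalized, for 9 columns; the submitters' processing notes name Trim Galore, STAR, featureCounts and the build mm10. Columns could not be paired with numbered samples and were used as members of their group, M351, M9 and M664 on the letter M alone. Replicates are tumors, and p-values measure only the spread between these tumors.

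Counts were tested in R 4.3.3 with edgeR 4.0.16 (filterByExpr with a minimum count of 10, TMM factors, glmQLFit, glmQLFTest, Benjamini-Hochberg). A floor of 3 counts corresponds to 0.114 to 2.39 CPM. Exon lengths are from GENCODE M21. Ratios were tested by exact permutation. DESeq2 1.42.0, limma 3.58.1 with quality weights, other scalings and filters, subtraction of background, removal of 12 satellite genes and leaving out libraries were the alternatives. The fits were also run on simulated data, and no result of those runs is used here. Named genes were the members, Myc, the glutamine enzymes, the genes called and the most abundant gene per kilobase in each other list, the 5 genes most like Slc7a5, and 4 other transporters picked after their values were seen. The members and lists were chosen with earlier results of these data known. A gene of a list and the ratio that uses it are not reported here, and the adjustment over 4 ratios still counts that ratio.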

Additional observations from a re-analysis of the deposited data

Results flagged for a closer look

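A value was listed here when the highest or lowest tumor of a group stood far from the others relative to the group's range. Of 30 groups examined, 3 met this, where chance gives about 1 in 20. Among the p53-driven tumors, Gls2 was highest in F187, at 2.76 CPM (7 counts, of which 35.3% are expected from background), and among the Myc-knockin tumors in M624, at 57.0 CPM (1497 counts). The ratio of Slc38a1 to Slc38a2 per kilobase was lowest among the Myc-knockin tumors in M9, at 0.0651, from 39 and 307 counts.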

How the results depend on the processing

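No paired analysis was possible because the columns of the table carry no replicate numbers. Of 170 recomputed log2 fold changes of the 9 members, 151 kept direction and side of the threshold, 5 lost the call, 8 gained it and 6 reversed. The count of members called was 0 with library size alone, 3 with DESeq2, 2 when each tumor had to hold at least 10 counts (the stricter filter, 8 members tested) and 4 without the 4 satellite libraries, and 0 to 2 with each tumor left out in turn (0 without F187, F325, F331 or F368, and 2 without M408 or M9). Genes called numbered 136 with library size alone, 2670 with DESeq2, 1663 with limma-voom, 494 among all genes with at least 1 count, 1316 with the stricter filter, 4595 without the satellite libraries and 5 to 1588 with each tumor left out (5 without F368, 6 without F331, 8 without F325, 335 without F187, 371 without M351, 375 without M624 and 1588 without M9). Fewer tumors or genes enter some of these fits, and the cause was otherwise not tested.

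Reversed log2 fold changes were as follows. Limma-voom, which moved genes by a median of -0.13, gave -0.26 for Slc3a2, -0.26 for Slc1a5, -0.14 for Gpt2, -0.11 for Asns and -0.74 for Sec13. Without M624 and M664 they were -0.28 for Slc3a2, -0.38 for Slc1a5, -0.074 for Asns, 0.19 for Ctps2 and -0.999 for Sec13. Without the satellite libraries they were -1.38 for Slc7a11, 0.39 for Glud1, -0.41 for Gfpt2 and 0.042 for Aldh18a1. Glud1 was at 0.020 when scaled by library size, 0.030 with the stricter filter and 0.011 with the background subtracted, and Ctps2 at 0.10 with upper-quartile normalization, 0.082 with the stricter filter and 0.050 with the background subtracted. With each tumor left out, Slc6a9 ranged from -0.76 to 0.18 (positive only without F368), Glud1 from -0.31 to 0.085, Gpt2 from -0.15 to 0.32, Ctps2 from -0.24 to 0.28, Gfpt2 from -0.0070 to 0.71 and Gsr from -0.053 to 0.30.

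The mean log2 difference of the ratio Slc7a5 to Slc3a2 was 1.46 with the background subtracted, 1.25 without M624 and M664, 1.93 without the satellite libraries and 1.24 to 1.66 with each tumor left out. That of Slc38a1 to Slc38a2 was 1.96, 1.96, 2.68 and 1.96 to 2.44. With any tumor left out, both stood at the smallest p the exact test allows (0.0286 or 0.0357), and the adjusted p over 4 ratios was then 0.0571 or 0.0714. Slc7a11 to Slc3a2 reversed to -0.13 with the background subtracted and -2.13 without the satellite libraries, was 2.39 without M624 and M664, and ranged from -0.65 to 1.21 with each tumor left out. Depth limits M351 and M9, where the members held 916 and 665 counts in all.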
